A study of Mnemiopsis leidyi with 40 samples.

Results

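The comparison set the 2 embryos labelled 20 h, the oldest of the series, against the 6 embryos labelled 11, 12 and 13 h (2 at each time). These 8 are chosen by their labelled developmental time alone, out of 40 single embryos of the ctenophore, or comb jelly, Mnemiopsis leidyi that were sampled at 20 times from 0 to 20 h. All samples are single embryos, and the labels name no treatment and give no parentage, strain or spawning. RNA of each whole embryo was counted by CEL-Seq, a method that marks each sample's RNA with a barcode, copies it linearly by transcription in vitro and reads the 3' end of each transcript. The comparison asks which transcripts differ across the gap between 13 h and 20 h, the longest between sampled times in the series.

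In the last part of embryogenesis Mnemiopsis forms the organs of the free-swimming cydippid: the rows of ciliary comb plates that drive swimming, the apical sense organ, the tentacles with their adhesive colloblast cells, the muscle and nerve cells and the light-producing photocytes. The deposited table gives gene models by ID only, and 0 of the 16548 IDs matched a RefSeq gene table of the species, so no gene below can be tied to any of these organs. Genes are therefore grouped by when they were present earlier in development.

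The 8 libraries held between 1344542 and 3153502 reads in gene models, and 3 reads correspond to between 0.951 and 2.23 CPM (reads relative to a library's total on a common scale). Thinned to 1344542 reads each, the 20 h embryos had 10877 and 11024 genes with at least 1 read, within the range of the younger embryos (10266 to 11467, exact two-sided permutation p = 0.679, where the smallest p that 28 arrangements allow is 0.0357). The 100 most abundant genes of an embryo took 40.5% and 44.7% of the reads at 20 h against 40.3% to 52.2% at 11-13 h (exact permutation p = 0.679). Unaligned reads made up 49.7% and 50.7% of all reads at 20 h and 45.1% to 49.9% before (exact permutation p = 0.143). Adjusted over these 3 measures, p was 0.679, 0.679 and 0.429. The replicate 1 embryos were sequenced in library pool 6 and the replicate 2 embryos in pool 12, named after their index numbers.

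Embryos of 20 h were for the most part less like the younger embryos than these were like each other. Across the 8477 tested genes, the Spearman correlation of the 2 embryos of 20 h was 0.891, the 15 pairs among the 11-13 h embryos ranged from 0.854 to 0.923, and the 12 pairs between 20 h and 11-13 h ranged from 0.779 to 0.888. By age of the younger embryo, the median correlation with 20 h was 0.802 at 11 h, 0.817 at 12 h and 0.836 at 13 h. All of these values describe agreement over genes, and genes are not replicates. The highest of the 12 was between 12 h replicate 1 and 20 h replicate 1, which share a pool. In the other pool 12 h replicate 1 correlated at 0.831 with the 20 h embryo and at 0.854 with the 12 h embryo, and within its own pool at 0.903 with the 11 h and at 0.923 with the 13 h embryo.

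A group of 323 genes was higher and one of 177 genes was lower at 20 h. Together these 500 calls are 5.9% of the 8477 genes tested (3.81% higher and 2.09% lower). A gene was called at a Benjamini-Hochberg adjusted p below 0.05 in edgeR's quasi-likelihood test with the library pool as a block and a difference of at least 2-fold. The median log2 fold change was 2.69 among the higher and -1.71 among the lower genes, where all genes tested had -0.04. At least 4-fold differences numbered 218 among the higher and 67 among the lower genes, and at least 16-fold differences 84 and 13. Genes without a read in a group, 9 higher and 6 lower, entered these values at the lower bound that 3 reads over the group set. The called higher genes took 1.18% to 2.11% of gene reads in the 11-13 h embryos and 5.93% and 6.47% in the 20 h embryos, and the called lower genes 2.98% to 4.72% and then 1.31% and 1.00%. These last shares follow from the calls and are given as a description. A change in a whole embryo can be a change in the number of cells of a kind or in the RNA per cell, which cannot be told apart here.

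**Figure D1:**
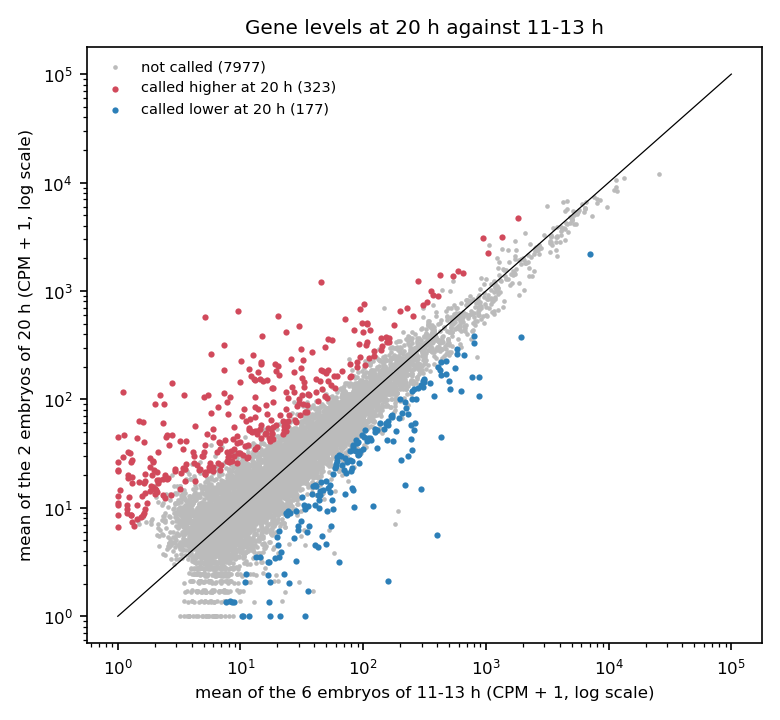
Mean level of each of the 8477 tested genes in the 6 embryos of 11-13 h (x axis) and in the 2 embryos of 20 h (y axis), as CPM plus 1 on log scales, with the line of equal levels. The 323 genes called higher spread far from the line at low levels of the younger embryos, while the 177 called lower lie closer to it.

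The counts rest on both 20 h embryos. With 20 h replicate 2 left out 33 genes were called (25 higher, 8 lower), and with 20 h replicate 1 left out 181 (126 higher, 55 lower), when the lone 20 h embryo is assumed to vary like the others. Without the pool as a block the lower genes numbered 105. Both embryos of 20 h lay above all 6 younger ones for 976 genes (11.5% of those tested) and below all of them for 818 (9.65%). Of the called genes, 316 of the higher lay above and 167 of the lower lay below. This largely follows from the calls, which use the same values, and is given as a description.

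Among the genes with the largest rises were transcripts that younger embryos hardly held at all. ML14303a stood at 2.30 and 2.57 CPM at 11 h, 5.42 and 2.54 at 12 h, 8.35 and 3.91 at 13 h, and 270.2 and 869.3 at 20 h (replicates 1 and 2 in this order). Both 20 h values exceed the highest younger value many times over, while the 20 h embryos differ from each other. The log2 fold change was 6.98 ± 0.45 (SE, edgeR adjusted p = 5.46e-06). ML15008a had 316 reads at 20 h, or 72.0 and 158.9 CPM, and 2 reads in all younger embryos, both in 11 h replicate 1. The ratio was 786, and its 95% counting interval ran from 216 to 6517 (edgeR adjusted p = 5.46e-06). It was thus close to absent before and moderately abundant at 20 h.

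Others in the same set had 0 reads in all 6 younger embryos. ML024110a reached 29.5 and 58.8 CPM at 20 h from 121 reads, at least 200.6-fold higher (edgeR adjusted p = 7.63e-04). ML154131a reached 14.4 and 36.2 CPM (69 reads, at least 114-fold higher, edgeR adjusted p = 0.00325). The last gene had no read in any of the 30 embryos of 0 to 9 h either, nor in 10 h replicate 2. ML130212a reached 13.0 and 29.4 CPM (58 reads, at least 96.2-fold) and ML105419a 11.7 and 30.1 CPM (57 reads, at least 94.5-fold), with edgeR adjusted p-values of 0.00464 and 0.00484. DESeq2, the alternative test, called none of these 4 genes. Its adjusted p-values were 0.130 for ML024110a, 0.184 for ML154131a, 0.202 for ML130212a and 0.205 for ML105419a. The remaining members of the largest rises had 2 younger reads each. ML02522a rose to 24.0 and 68.5 CPM, a ratio of 313 (95% counting interval 85.0 to 2616), and ML10439a to 19.2 and 37.7 CPM, a ratio of 194 (51.9 to 1630) (edgeR adjusted p = 3.57e-05 and 3.46e-04). In each of these 8 genes the replicate 2 embryo held the higher level. The filter on low counts asked for 5.00 CPM in at least 2 embryos, and all but ML14303a lay below that level in every younger embryo. They therefore entered the test only through the 20 h embryos, where they are high, and were ranked on the same values. Their folds and p-values are given as a description.

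**Figure D2:**
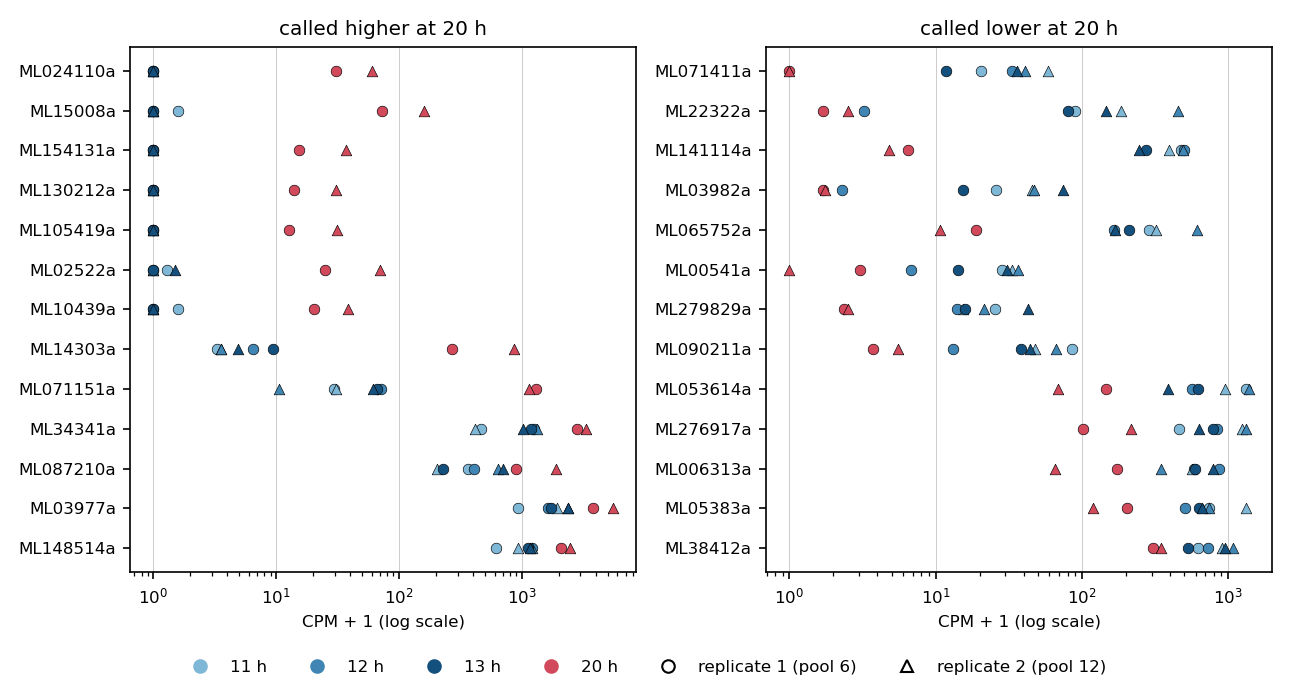
Level of each named gene in each of the 8 embryos as CPM plus 1 on a log scale, for the largest fold changes and the largest differences in CPM in each direction, with colour for the time and a circle or triangle for the replicate. The red 20 h points lie to the right of all blue points on the left panel and to the left of them on the right panel, which the naming rule asks for, and 12 h replicate 1 is the blue circle nearest to 20 h for ML22322a, ML03982a, ML065752a, ML00541a, ML279829a, ML090211a and ML05383a.

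By absolute level the rises were led by genes that were already abundant. ML03977a stood between 929.0 and 2378 CPM at 11-13 h (median 1833) and at 3820 and 5524 CPM at 20 h, a log2 fold change of 1.37 ± 0.22 (SE, edgeR adjusted p = 0.00355). ML34341a went from 414.9 to 1323 CPM (median 1101) to 2797 and 3319 CPM, with a log2 fold change of 1.70 ± 0.38 (SE, edgeR adjusted p = 0.0200). Within the younger embryos both were lowest in an 11 h embryo. ML148514a stood at 614.2 to 1219 CPM and then at 2067 and 2447 (log2 fold change 1.12), and ML087210a at 202.1 to 698.9 CPM and then at 893.6 and 1901 (log2 fold change 1.67), with edgeR adjusted p-values of 0.0156 and 0.0161. ML071151a combined a large fold with a high final level, at 28.8 and 29.8 CPM at 11 h, 70.8 and 9.53 at 12 h, 65.6 and 60.6 at 13 h, and 1294 and 1146 at 20 h. Its log2 fold change was 4.83 ± 0.44 (SE, edgeR adjusted p = 5.25e-05), and here the 20 h embryos agree closely, at 1220 ± 104.4 CPM (SD, n = 2).

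The falls included transcripts that all but disappeared. ML141114a stood at 476.2 and 394.4 CPM at 11 h, 501.7 and 492.4 at 12 h, 274.9 and 244.5 at 13 h, and 5.49 and 3.77 at 20 h. Every younger embryo was far above both 20 h embryos, and the 13 h pair was the lowest of the younger ones. The log2 fold change was -6.41 ± 0.49 (SE, edgeR adjusted p = 1.45e-05). ML071411a had between 10.7 and 57.6 CPM at 11-13 h (435 reads) and 0 reads at 20 h, at least 29.2-fold lower (edgeR adjusted p = 0.00107). ML065752a fell from 166.1 to 610.0 CPM (median 249.0) to 17.8 and 9.79 CPM, with a log2 fold change of -4.31 ± 0.59 (SE, edgeR adjusted p = 0.00121). ML279829a fell from 13.1 to 41.6 CPM to 1.37 and 1.51 CPM, with 4 reads left at 20 h (log2 fold change -3.83, edgeR adjusted p = 0.00795).

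In 6 of the 8 genes with the largest falls 12 h replicate 1 was the lowest younger embryo. For ML065752a (166.1 CPM, next lowest 168.2) and ML279829a (13.1 CPM, next lowest 14.4) it lay close to the next embryo, and for the other 4 it stood farther off. ML22322a had 2.23 CPM in that embryo against 79.3 to 450.5 CPM in the other 5, and 0.686 and 1.51 CPM at 20 h. ML03982a had 1.28 CPM there against 14.3 to 73.4, and 0.686 and 0.753 at 20 h. Their falls thus set 5 embryos against 3. ML22322a was 121-fold lower at 20 h with a 95% counting interval of 41.4 to 589 on 3 reads, and ML03982a 42.7-fold lower with an interval of 11.8 to 353.9 on 2 reads (edgeR adjusted p = 0.0164 and 0.0215). ML00541a had 5.74 CPM in 12 h replicate 1 against 13.1 to 35.6 in the others and 2.06 and 0 CPM at 20 h (21.1-fold lower, interval 7.16 to 102.9). ML090211a had 12.1 CPM there against 37.6 to 84.5 in the others and 2.74 and 4.52 CPM at 20 h (log2 fold change -3.73). Their edgeR adjusted p-values were 0.0200 and 0.0132.

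The largest falls in absolute level kept a measurable transcript at 20 h. ML053614a went from 389.3 to 1391 CPM (median 784.9) to 145.4 and 67.8 CPM, with a log2 fold change of -3.06 ± 0.55 (SE, edgeR adjusted p = 0.00668). ML276917a went from 460.6 to 1336 CPM (median 815.9) to 101.5 and 215.4 (log2 fold change -2.53 ± 0.36, SE, edgeR adjusted p = 0.00168). In both genes the highest 20 h value lies below the lowest younger one. ML006313a fell to 174.2 and 64.0 CPM (log2 fold change -2.48), ML05383a to 202.3 and 118.3 CPM (-2.21) and ML38412a to 307.9 and 348.8 CPM (-1.25), from lowest younger values of 347.6, 508.8 and 529.6 CPM, with edgeR adjusted p-values of 0.00323, 0.00552 and 0.00744. A pair of more abundant genes called lower lie outside the naming rule, since their groups overlap, and were chosen after their values were seen. ML218818a stood at 8392 to 13694 CPM in the 11-13 h embryos of pool 6 and at 2277 to 2966 CPM in those of pool 12, and at 2685 and 1660 CPM at 20 h, so that it was lower at 20 h within each pool (log2 fold change -1.32 ± 0.31, SE, edgeR adjusted p = 0.0259). ML07464a had 349.7 CPM in 12 h replicate 1 against 1332 to 3136 CPM in the other younger embryos, and 295.6 and 454.2 CPM at 20 h, with a log2 fold change of -2.23 ± 0.48 (SE, edgeR adjusted p = 0.0164).

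Embryos of 0 to 9 h, which the comparison does not use, divide the tested genes by their earlier history. Genes present at 0 to 2 h (mean of at least 5 CPM there, in part supplied by the mother) made up 5255 of the tested genes, and 83 of them were called higher and 91 lower at 20 h (1.58% and 1.73%). Genes that reached 5 CPM later, at some window between 3 and 9 h, numbered 1695, with 56 higher and 73 lower (3.30% and 4.31%). The 1527 genes below 5 CPM in every window to 9 h held 184 genes called higher and 13 called lower (12.0% and 0.851%). Over all tested members these classes had median log2 fold changes of -0.07, -0.11 and 0.43, and over their called higher genes 1.65, 1.91 and 3.66. The last class had to reach the filter on low counts through embryos of 11 h or later, at a level of 5.00 CPM in at least 2 embryos. Of its 184 higher genes, 97 reached that level in fewer than 2 of the 11-13 h embryos, and 79 of these in none, so that they passed only with a 20 h embryo, where they are high. The share and median of this class are therefore a description of the genes that entered, and nothing is read from their difference to the other classes. With 2 CPM as the level that counts as present, the class of 3 to 9 h held 1821 genes, 95 called higher and 69 lower. Higher genes thus outnumbered lower ones there, the reverse of the order at 5 CPM. With 10 CPM as that level the class held 40 higher and 77 lower genes, so its direction depends on the level chosen. At 2 CPM the last class held 599 genes, 123 called higher and 4 lower. In both classes the share called higher was larger at 2 CPM than at 5 CPM.

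**Figure D3:**
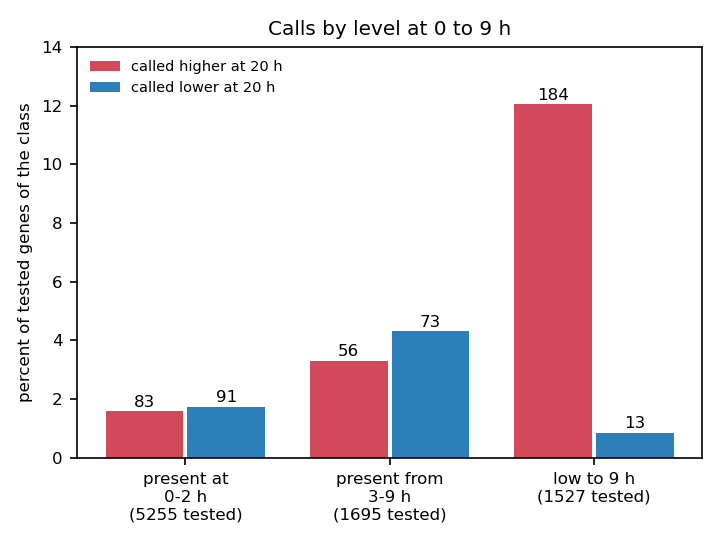
Percent of the tested genes of each class that were called higher (red) or lower (blue) at 20 h, with the number of genes on each bar, for genes present at 0-2 h, genes that first reached 5 CPM at 3-9 h and genes below 5 CPM through 9 h. The bars of the last class stand at 12.0% and 0.851%, and 97 of its 184 higher genes passed the filter on low counts only with a 20 h embryo.

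For 301 of the 323 higher genes (93.2%) the 20 h level was above the mean of every earlier window of 0 to 9 h, against 39.2% of all tested genes. Of the 177 lower genes 74 (41.8%) were at 20 h below every earlier window, against 30.8% of all tested genes, and 32 were still above every earlier window. These shares follow in part from the calls, which rest on the same 20 h levels, and are given as a description. Of the 323 higher genes, 184 were below 5 CPM in every earlier window by the definition of their class. Examples from the classes differ in course. ML218920a was present from the start, with a mean of 22.5 CPM at 0 to 2 h, fell to a mean of 6.95 CPM at 7 to 9 h and 1.19 to 11.4 CPM at 11-13 h, and stood at 104.2 and 65.5 CPM at 20 h, with a log2 fold change of 4.11 ± 0.45 (SE, edgeR adjusted p = 2.42e-04). Its 20 h level exceeded even that of the youngest embryos. ML014421a stood at 0.514 to 16.7 CPM at 11-13 h and at 196.1 and 258.4 CPM at 20 h, with a log2 fold change of 4.68 ± 0.52 (SE, edgeR adjusted p = 2.56e-04). ML234553a was at 383.4 and 388.7 CPM in the 20 h embryos, at 32.2 and 50.7 CPM in the 12 h and 13 h embryos of pool 6 and at 0 to 1.54 CPM in the other 4 (log2 fold change 6.15 ± 1.10, SE, edgeR adjusted p = 0.00648). At 12 and 13 h its level was thus higher in the embryos of pool 6. At 8.5 and 9 h the order was the reverse, with 0.853 and 0 CPM in pool 6 and 42.3 and 39.3 CPM in pool 12. Of the falling genes, ML053614a had its highest level, 3205 CPM, in 9 h replicate 1, while 9 h replicate 2 held 405.1 CPM. ML141114a had a mean of 70.5 CPM at 7 to 9 h, so that it rose before it fell.

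**Figure D4:**
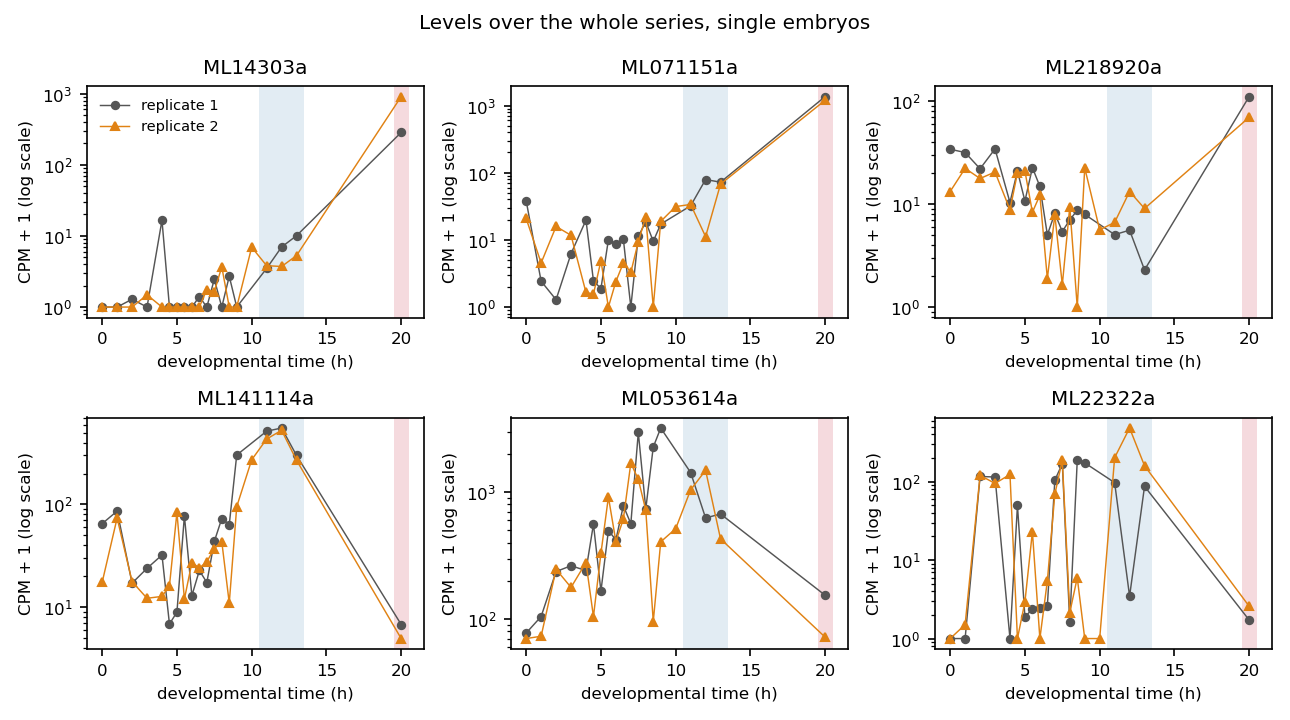
Level of 6 named genes in each embryo of the series as CPM plus 1 on a log scale against developmental time in hours, with 1 line per replicate, the 11-13 h embryos shaded blue and the 20 h embryos shaded red; 10 h replicate 1, a library with 3808 reads, is not drawn. ML14303a, ML071151a and ML218920a are highest at 20 h, ML141114a peaks at 11 and 12 h, and ML22322a alternates between high and low embryos from 2 h on.

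The difference between 20 h and 11-13 h was read in each pool from embryos that the other pool does not share. Within pool 12, 147 genes were called higher and 69 lower (1.72% and 0.81% of those tested, 2.53% in all), and within pool 6 the calls were 50 and 10 (0.551% and 0.11%, 0.661% in all), each from 1 embryo against 3. Of the 147, 140 could be tested in pool 6, where 134 had the same direction and 111 were at least 2-fold higher, against 9.82% of all genes tested in both. Their median log2 fold change was 3.96 in pool 12 and 2.26 in pool 6. Each pool was filtered on low counts by itself. A gene near 0 in the younger embryos of a pool was therefore tested there only if its 20 h embryo held reads. For such higher genes the filter itself fixes the direction, and the share over all genes does not account for this. The same holds for lower genes near 0 in the 20 h embryo of a pool, which were tested there only through its younger embryos. Of the 69 lower genes 68 had the same direction in pool 6 and 49 were at least 2-fold lower, against 14.6% of all genes, with medians of -3.16 and -1.68. The other way round, all 50 higher genes of pool 6 were at least 2-fold higher in pool 12, against 16.1% of all genes. Of its 10 lower genes 8 were lower there, as were 53.5% of all genes, and 6 were at least 2-fold lower, against 17.0%. A test of whether the 20 h difference itself differs between the pools called 0 genes (0%, edgeR interaction, 489 genes at an unadjusted p below 0.05). With 1 embryo of 20 h in each pool it cannot tell a pool from an embryo, and no agreement is read from it.

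**Figure D5:**
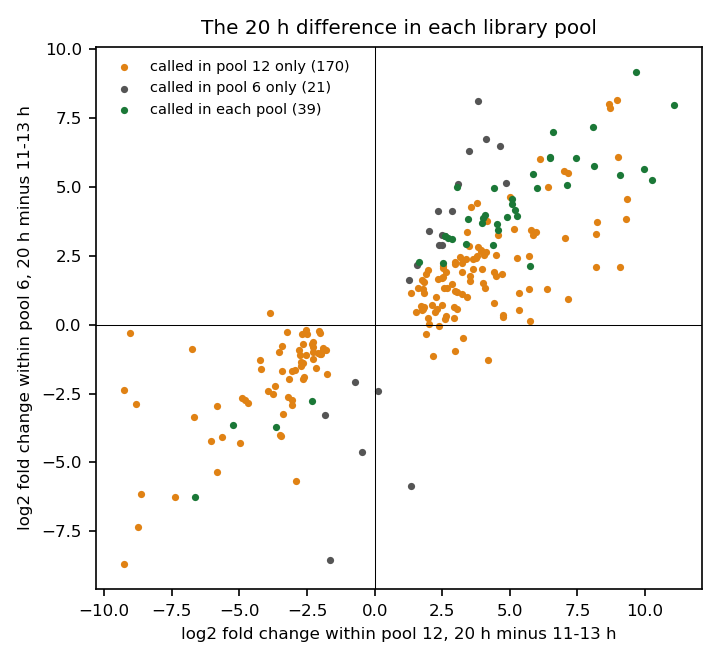
Log2 fold change of 20 h minus 11-13 h within pool 12 (x axis) and within pool 6 (y axis) for the genes called in either pool and tested in both. The 170 genes called in pool 12 alone, the 21 called in pool 6 alone and the 39 called in each lie mostly in the areas where both values have the same sign.

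The 20 h embryo of pool 12 lay farther from the younger embryos than that of pool 6. Replicate 2 exceeded replicate 1 in 230 of the 323 higher genes (71.2%), against 50.1% of all tested genes, and in 70 of the 177 lower genes (39.5%). The median level of the higher genes was 46.6 CPM in replicate 1 and 64.8 in replicate 2. Correlations of replicate 2 with the younger embryos ran from 0.779 to 0.831 and those of replicate 1 from 0.802 to 0.888. Among 4421 genes with a mean of at least 20 CPM, 584 differed more than 2-fold between the 20 h embryos (13.2%), against 12.3% between the 11 h, 25.3% between the 12 h and 9.79% between the 13 h embryos. The largest differences within the 20 h pair, given as a description, were in ML10111a, at 12.3 and 1015 CPM in replicates 1 and 2, in ML10112a, at 5.49 and 409.0 CPM, and in ML12231a, at 148.8 and 3396 CPM. For these 3 the younger embryos stood at 85.1 to 1006, 46.4 to 663.4 and 363.1 to 5213 CPM, so that replicate 1 lay below all of them and replicate 2 did not, and no 20 h difference was called (edgeR adjusted p = 0.953, 0.964 and 0.655).

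Among the younger embryos, those nearest to 20 h differed with the direction of change. The highest younger level of a called higher gene was in 13 h replicate 2 for 30.0% of them, in 12 h replicate 1 for 24.5% and in 13 h replicate 1 for 22.3%, where over all tested genes these embryos held the highest level in 16.1%, 18.8% and 13.3%. The lowest younger level of a called lower gene was in 12 h replicate 1 for 40.1% of them, against 17.5% over all tested genes. Leaving that embryo out gave 598 calls, 464 of them among the 500. A linear trend over 11, 12 and 13 h was called for 0 of 8088 genes (0%) in edgeR, with 370 at an unadjusted p below 0.05 and 16 called by DESeq2. The smallest p-values of that trend belonged to ML05514a, ML124215a and ML01433a. ML01433a had 28.8 and 49.9 CPM at 11 h, 83.8 and 94.0 at 12 h, 136.0 and 161.9 at 13 h, and 390.2 and 957.4 at 20 h, so that each pair lay above the one before. It was called higher at 20 h (log2 fold change 2.78 ± 0.46, SE, edgeR adjusted p = 0.00407). ML05514a had 20.1 and 24.2 CPM at 11 h, 39.2 and 129.0 at 12 h, 108.0 and 264.6 at 13 h, and 345.0 and 665.9 at 20 h, and was also called higher at 20 h (log2 fold change 2.46 ± 0.61, SE, edgeR adjusted p = 0.0327). ML124215a had 260.5 and 400.0 CPM at 11 h, 237.8 and 118.8 at 12 h, 47.7 and 39.6 at 13 h, and 174.9 and 69.3 at 20 h, so that it did not continue downward. Their trends had adjusted p-values of 0.0964, 0.178 and 0.227 (edgeR) for ML05514a, ML124215a and ML01433a. With 13 h alone as reference, 128 genes were called at 20 h (1.51% of those tested), 84 higher (0.991%) and 44 lower (0.519%).

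The transcripts that took most reads were not called. CPM count 3' ends and are not scaled by length. ML305521a stood at 8184 to 45466 CPM in the younger embryos and at 9675 and 14329 CPM at 20 h, with a log2 fold change of -0.97 ± 0.56 (SE, edgeR adjusted p = 0.347). ML20395a varied less, at 10772 to 16911 CPM and then 11605 and 10248 CPM, with a log2 fold change of -0.29 ± 0.19 (SE, edgeR adjusted p = 0.420). The other 3 of the 5 most abundant genes were lower by the fitted value, with log2 fold changes of -0.44 ± 0.22 for ML00748a, -0.35 ± 0.21 for ML193210a and -0.10 ± 0.18 for ML148534a (SE, edgeR adjusted p = 0.286, 0.363 and 0.810), and their groups overlapped. Their 20 h levels were 6991 and 9794 CPM for ML00748a, 6826 and 11210 CPM for ML193210a and 8368 and 12642 CPM for ML148534a.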

How the data were processed

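Messenger RNA was counted in single embryos, and the authors deposited these counts as whole numbers, a row per gene model and a column per embryo. Per the submitters' processing notes, CASAVA 1.8, Bowtie2 2.1.0 and HTSeq 0.5.4p3 were used. The sources used here give neither the genome build nor the strand setting, nor whether reads were merged by molecular identifier, so counts are treated as reads and intervals and floors cover counting error only. Genes with close copies or overlapping neighbours are uncertain. Totals that name no gene stayed out of library sizes: reads outside gene models made up 16.4% to 25.5% and ambiguous reads 2.27% to 3.69% of all reads of the 8 embryos.

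In R 4.3.3, edgeR 4.0.16 filtered the counts of the 8 embryos (filterByExpr, count minimum 10), scaled them by TMM and fitted a quasi-likelihood model with pool and window of time (median biological coefficient of variation 0.353). Calls needed a Benjamini-Hochberg adjusted p below 0.05 and 2-fold. Standard errors are the absolute log2 fold change over the square root of F. CPM are scaled by TMM, and 95% counting intervals are exact. DESeq2 1.42.0 was an alternative.

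The authors' sheet of samples gives the index number, 6 or 12, that defines the pools, each with 1 embryo of every time. Differences between the pools at the 4 times correlated across genes with r from 0.126 to 0.399, over 0.1 in all 6 pairs of times, so the pool was kept as the block. Nothing says that same-age embryos came from separate spawnings, so p-values measure the spread between these embryos. Genes were named by rule: the largest folds, the largest CPM differences and the largest folds per class among called genes whose groups do not overlap, plus the most abundant genes, those differing most within the 20 h pair and the smallest p-values of the trend. The embryos, classes and rules were chosen with earlier results of these data known.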

Additional observations from a re-analysis of the deposited data

Results flagged for a closer look

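In 40 named genes and 4 library measures the 6 embryos of 11-13 h were searched for a value far from the rest. Of these 44 features 4 held such a value. Chance alone gives about 1 in 20 features, and no excess is read from the count. ML065752a, lower at 20 h, had 610.0 CPM in 12 h replicate 2, and the next value was 319.3 CPM. ML05383a, also lower at 20 h, had 1334 CPM in 11 h replicate 2, and the next value was 736.9 CPM. ML15008a and ML10439a, higher at 20 h, each had 0.575 CPM in 11 h replicate 1 from 2 reads, and 0 in the other 5 embryos, where any read stands apart and the rate of chance does not apply.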

How the results depend on the processing

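The higher genes outnumbered the lower ones under each of the 20 alternatives run. Counts of calls were within 1.5 times of the 500 with RLE scaling (505), total counts (459), a mean of at least 10 CPM (399), libraries thinned to equal totals (479), no replicate block (359, of which 357 are among the 500) and DESeq2 (655, of which 470 are). The lower genes numbered 105 with no replicate block and 266 with DESeq2. Fits that moved the counts further were no filter on low counts (758 called, 309 lower), all 40 embryos with a 20-level time factor (216 called, 168 higher, 48 lower), 13 h as the only reference (128, 84 and 44), glmTreat against 2-fold (148, 119 and 29), pool 6 alone (60, 50 and 10) and pool 12 alone (216, 147 and 69). Leaving out 1 embryo at a time gave 33 to 598 calls, 25 to 372 higher and 8 to 226 lower. The trend over 11 to 13 h was called for 62 genes with no filter, 16 with DESeq2 and 0 to 3 with 1 embryo left out. With 2 CPM as present, the genes first present at 3 to 9 h and called higher numbered 95, and those low to 9 h and called lower 4. The difference in genes detected, 20 h minus 11-13 h, was -338 unthinned and 181.5 after thinning. The cause of these shifts was not tested. Of the 29 genes named for their fold, CPM difference or class, 6 were called under all 20 alternatives, and none changed direction where it had a value. ML01433a and ML05514a, named for their trend, were called at 20 h under 18 and 11 of the 20. Without 20 h replicate 2, 23 of the 29 were no longer called, and with pool 6 alone 19. In pool 6 alone and pool 12 alone, as in fits without a 20 h embryo, 1 embryo stands for 20 h. Depth limits genes below about 2.23 CPM at 20 h, where 3 reads are that level.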

Other observations

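ML22322a, called lower at 20 h, varied between embryos of the same age long before. Of the 30 embryos of 0 to 9 h, 17 held less than 5 CPM and 13 at least 5 CPM, with a highest level of 187.2 CPM in 8.5 h replicate 1, while 10 h replicate 2 had 0 reads. ML03982a had less than 5 CPM in 19 of the 30 and up to 88.1 CPM in 7.5 h replicate 1. ML141114a and ML053614a were at 5 CPM or above in all 30.

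Reads of genes that were later high at 20 h appeared in 4 h replicate 1, a library of 580587 reads in pool 6. The 184 genes that were low to 9 h and called higher at 20 h summed to 431.7 CPM in that embryo and to between 34.6 and 380.5 CPM in the other 29 embryos of 0 to 9 h, where those up to 6.5 h reached 174.7 CPM at most. The other 4 h embryo held 61.2 CPM. ML024110a had 11 reads (17.1 CPM) and ML14303a 10 reads (15.6 CPM) in 4 h replicate 1, each the highest level of that gene at 0 to 9 h, and the next highest levels were 1.42 and 2.67 CPM. These embryos take no part in the comparison, and the source of the reads was not tested.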
